A study of Mus musculus with 12 samples.

Results

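This report describes 9 inflammatory genes of the CC chemokine system in mouse spleen, namely the ligands Ccl2, Ccl7, Ccl12, Ccl8, Ccl3, Ccl4 and Ccl5 and the receptors Ccr1 and Ccr2. They were chosen by gene symbol from 19938 genes with a probe set annotated to 1 symbol, and each of the 9 had a single such probe set. Total RNA from whole spleens of C57BL/6 mice was read on 12 Affymetrix arrays, and the values are log2 expression after RMA, so a step of 1 is a doubling of signal. By the labels, 4 mice were Toll-like receptor (TLR) deficient and septic, with the adaptors Trif and MyD88 named in their titles, 4 were wildtype and septic, and 4 were wildtype with no treatment. Sepsis was induced by colon ascendens stent peritonitis, in which a stent in the colon wall leaks gut content into the abdominal cavity. The titles number the arrays M5 to M8 (septic TLR-deficient replicates 1 to 4), M9 to M12 (septic wildtype) and M13 to M16 (untreated wildtype, marked as 0 h in most of their titles). The age of the mice, the time from operation to sampling and the mutant alleles are not given in the sources used here. No untreated TLR-deficient mice were measured, so the effect of genotype without sepsis cannot be told apart from its effect during sepsis.

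Chemokines are small secreted proteins that direct white blood cells along concentration gradients. The CC family carries adjacent cysteines near its start, and its inflammatory members are switched on in macrophages, monocytes, endothelium and stroma within hours of microbial contact, largely through NF-kappaB and interferon signalling downstream of TLRs and other sensors. Ccl2, Ccl7 and Ccl12 bind Ccr2, which inflammatory monocytes use to leave the bone marrow. Ccl3 and Ccl5 bind Ccr1, which guides monocytes and neutrophils. In bulk spleen RNA, fewer cells of a type and less RNA per cell cannot be told apart.

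The 7 ligand genes lie on mouse chromosome 11 and both receptor genes on chromosome 9. In the RefSeq annotation of GRCm38.p6, Ccl2 is followed by Ccl7, Ccl12 by Ccl8 and Ccl3 by Ccl4, each as the next protein-coding gene. Promoter windows of 300 bases, from 250 before to 50 after the annotated start, were at hand for 5 members in the RefSeq table. The windows of Ccl12 and Ccl8 are shown because these neighbours behaved differently on the arrays, and that of Ccl3 because it varied most. Capitals mark TATAA on either strand, the letters of the TATA box that positions the transcription machinery.

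Ccl12 (GRCm38.p6 chr11:82101595-82101894, plus strand): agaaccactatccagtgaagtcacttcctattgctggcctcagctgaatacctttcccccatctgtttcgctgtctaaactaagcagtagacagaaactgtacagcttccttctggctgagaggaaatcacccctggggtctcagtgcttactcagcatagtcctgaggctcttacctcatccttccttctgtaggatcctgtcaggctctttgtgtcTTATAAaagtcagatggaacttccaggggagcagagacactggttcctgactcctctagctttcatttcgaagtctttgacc
Ccl8 (GRCm38.p6 chr11:82114935-82115234, plus strand): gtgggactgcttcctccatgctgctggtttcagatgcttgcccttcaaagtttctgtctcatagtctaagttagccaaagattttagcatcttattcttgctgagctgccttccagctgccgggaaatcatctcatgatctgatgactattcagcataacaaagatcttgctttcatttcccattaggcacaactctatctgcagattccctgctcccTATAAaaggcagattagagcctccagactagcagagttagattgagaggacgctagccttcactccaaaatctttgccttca
Ccl3 (GRCm38.p6 chr11:83649329-83649628, minus strand): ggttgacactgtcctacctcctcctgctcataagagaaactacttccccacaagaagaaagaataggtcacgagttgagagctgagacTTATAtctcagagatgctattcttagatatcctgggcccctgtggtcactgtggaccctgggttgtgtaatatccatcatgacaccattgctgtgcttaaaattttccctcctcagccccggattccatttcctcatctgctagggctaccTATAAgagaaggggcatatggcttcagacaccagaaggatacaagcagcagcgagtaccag

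The TATAA letters on the gene strand began 31 bases before the annotated start in Ccl12, 32 before it in Ccl8 and 11 before it in Ccl3. In Ccl12 they overlapped a TATAA match on the opposite strand by all but 1 base. TATAA occurred in 4 of the 5 member windows, all except Ccr1, and in 24.9% of all 32851 windows of this length. An NF-kappaB-like pattern (GGG, any 5 bases, CC, both strands) was found only in the Ccr1 window, while 50.8% of all windows hold it. An interferon response pattern (GAAA, any 2 bases, GAAA, both strands) was in none of the 5 and in 3.44% of all windows. These are matches of letters in the windows and not binding sites.

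The arrays did not fall together by label, and this bears on every result below. Across genes, which are not independent replicates, 11 arrays correlated with each other far better than with M10 (septic wildtype replicate 2), whose highest correlation with any array was 0.809. Each of the 12 arrays was most correlated with an array of its own run of title numbers, taken as M5 to M7 with M16, M8 to M11, and M12 to M15, and 5 of 12 with an array of their own label. These runs were drawn with the data in view and are not named in the labels. They are used here to list values and to give the share of all genes with the same order of arrays. As the runs were drawn from these data, such shares and best matches are description and not a test. M8, M12 and M16 thus each lay with arrays of another label. The labels of these 3 arrays may be displaced, which was not tested, and every labelled difference below was computed with the labels as given. Xist, the X-linked RNA of female cells, read 3.73 to 4.33 on M12 to M15 and 8.94 to 10.94 on the other 8 arrays, and the labels give no sex. M12 thus read unlike the other septic wildtype arrays for Xist, and M16 unlike the other untreated ones. The targeted adaptors did not separate the labels: Myd88 read 8.62 to 9.64 on septic TLR-deficient, 6.48 to 9.20 on septic wildtype and 8.87 to 9.75 on untreated arrays, and Ticam1, which encodes Trif, 5.80 to 5.93, 5.64 to 6.22 and 5.76 to 6.57 on the same labels in turn. By run, Myd88 had its 4 lowest values on M8 to M11, at 8.62, 8.70, 6.48 and 8.78. An order of this kind held for 2.12% of all genes. Where the probe sets of both adaptors lie relative to any deleted parts was not examined, so these values were not used to check the alleles. Of the spleen markers, Cd79a of B cells read 7.78 or more and Spic of red pulp macrophages 7.80 or more on every array, both lowest on M10.

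**Figure D1:**
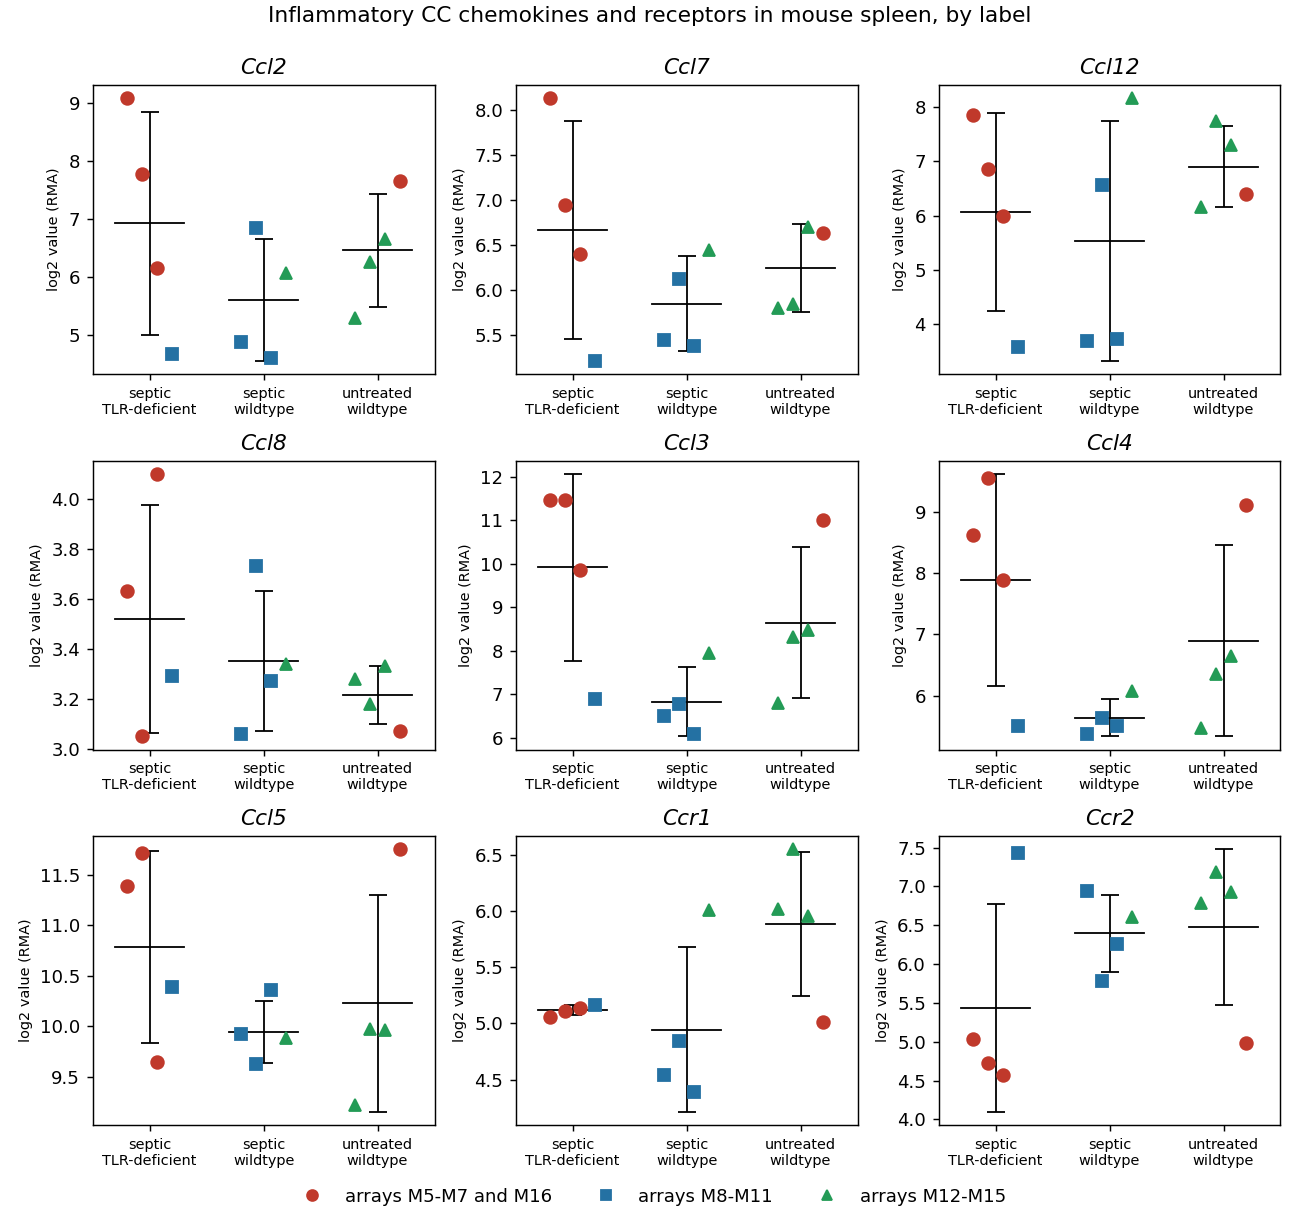
Log2 value of each of the 9 genes (vertical axes, RMA, scales differ) on the 4 arrays of each label, with the mean (line) and SD (bars, n = 4). Point shape and colour give the run of title numbers: for Ccl3 the array of the untreated label at 10.99 is M16, and the septic TLR-deficient array at 6.89 is M8.

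Ccl3 and Ccl4, the macrophage inflammatory proteins, were high on 3 of 4 arrays labelled septic TLR-deficient and on 1 labelled untreated, and lower on the others. Ccl3 read 11.46, 11.45, 9.85 and 6.89 on septic TLR-deficient replicates 1 to 4. It read 6.49, 6.77, 6.09 and 7.94 on septic wildtype replicates 1 to 4, and 6.79, 8.31, 8.48 and 10.99 on untreated replicates 1 to 4. The high arrays were M5, M6, M7 and M16, all at 9.85 or above, against 8.48 or below on the other 8, so the labelled groups overlapped. From lowest to highest array Ccl3 spanned 5.37 log2 units, 41.3-fold, the widest span among the 9 genes.

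Ccl4 followed the same arrays. It read 8.61, 9.55, 7.89 and 5.51 on septic TLR-deficient replicates 1 to 4. The septic wildtype arrays had 5.37, 5.64, 5.50 and 6.07, and the untreated arrays 5.47, 6.35, 6.65 and 9.10. Again M5, M6, M7 and M16 held the 4 highest values, with 7.89 the lowest of them and 6.65 the highest elsewhere. Of the 9 members, only Ccl3 and Ccl4 had their 4 highest values on these arrays, a pattern found in 1.72% of all genes.

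Ccl2, the main monocyte attractant, was highest on a single array. It read 9.09, 7.78, 6.15 and 4.67 on septic TLR-deficient replicates 1 to 4. It read 4.87, 6.85, 4.60 and 6.07 on the septic wildtype arrays and 5.29, 6.25, 6.65 and 7.65 on the untreated arrays. M5, M6 and M16 were highest, and M7, which was high for Ccl3, lay here among the wildtype arrays. The lowest values, 4.60 to 4.87, were those of M8, M9 and M11, while M10 stood well above them at 6.85.

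Ccl7, a related ligand of Ccr2, also peaked on M5 and shared its 3 lowest arrays with Ccl2, over a narrower span of 2.91. Its values were 8.13, 6.94, 6.40 and 5.22 on septic TLR-deficient replicates 1 to 4. They were 5.45, 6.13, 5.38 and 6.45 on the septic wildtype arrays and 5.80, 5.85, 6.70 and 6.64 on the untreated arrays. M5 led by more than a log2 unit, M8, M9 and M11 were lowest, and the 3 labels overlapped.

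Ccl12, a Ccr2 ligand of the mouse, departed from Ccl2 and Ccl7 on the arrays M12 to M15. It read 7.85, 6.87, 5.99 and 3.57 on septic TLR-deficient replicates 1 to 4. The septic wildtype arrays had 3.68, 6.57, 3.73 and 8.17, and the untreated arrays 6.16, 7.74, 7.31 and 6.40. The highest array of all was M12, labelled septic wildtype, and M14 and M15 also stood above M6, M7 and M16. M8, M9 and M11 read 3.57 to 3.73, with a gap to 5.99 on the next array up, and Ccl12 spanned 4.60 log2 units, 24.3-fold. Leaving M10 aside, these 3 arrays were the 3 lowest for Ccl2, Ccl7 and Ccl12, 3 of the 9 members, an order that held for 2.63% of all genes.

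Ccl8, which in mice acts through the receptor Ccr8, hardly moved. It read 3.63, 3.05, 4.10 and 3.29 on septic TLR-deficient arrays, 3.06, 3.73, 3.27 and 3.34 on septic wildtype arrays and 3.28, 3.18, 3.33 and 3.07 on untreated arrays. Its span of 1.05 was the smallest of the 9, and its mean lay above the means of only 11% of genes, at the dim end of the table where a change is hard to see.

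Ccl5, made by natural killer cells, T cells and macrophages, was bright everywhere. It read 11.39, 11.71, 9.64 and 10.39 on septic TLR-deficient arrays, 9.92, 9.62, 10.36 and 9.88 on septic wildtype arrays, and 9.22, 9.97, 9.96 and 11.75 on untreated arrays. Its highest arrays were M16, M6 and M5, all at 11.39 or above, and the remaining 9 lay between 9.22 and 10.39. M7 was among the low ones for Ccl5. Over 9 measured markers of natural killer and cytotoxic T cells, the mean log2 value per array was 6.21 to 7.48 on septic TLR-deficient, 6.31 to 7.47 on septic wildtype and 6.35 to 7.75 on untreated arrays. On M5, M6 and M16, where Ccl5 was highest, that mean was 6.64, 6.30 and 6.35, in the lower part of its range. The part of these cell types in the Ccl5 values was not tested.

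The receptors did not follow their ligands. Ccr1, a receptor for Ccl3 and Ccl5 on neutrophils and monocytes, read 5.06, 5.11, 5.14 and 5.16 on septic TLR-deficient arrays, 4.54, 4.84, 4.39 and 6.01 on septic wildtype arrays and 6.02, 6.55, 5.96 and 5.01 on untreated arrays. The arrays M12, M13, M14 and M15 held its 4 highest values, at 5.96 or above, and the other 8 read 5.16 or less, an order shared by 0.757% of all genes. Over 9 neutrophil markers the mean log2 value per array was highest on M12 and M14, at 8.51 and 8.47. It was 7.53 to 8.51 over M12 to M15, 6.20 to 7.73 on M5 to M7 with M16 and 6.61 to 7.23 on M8 to M11. M13, at 7.53, lay below M7, at 7.73, unlike for Ccr1. Over 7 measured monocyte markers it was 8.20 to 8.73 on M12 to M15, 7.39 to 8.20 on M5 to M7 with M16 and 6.45 to 8.12 on M8 to M11. Pancreatic acinar markers, from a tissue that lies beside the spleen, were also high on some of these arrays. Their mean over 6 measured markers was 8.81 on M12 and 9.77 on M14, against 6.88 on M16, 5.94 on M13 and 4.72 to 5.74 on the other 8 arrays. M12 and M14 were also among the 3 highest arrays for Ccl12, while M15, with 4.72, was high for Ccr1 and Ccl12 as well. The part of any of these cell types in the Ccr1 and Ccl12 values was not tested.

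Ccr2, the receptor of Ccl2, Ccl7 and Ccl12, was lowest on the arrays where Ccl3 and Ccl4 were highest. It read 5.03, 4.72, 4.57 and 7.43 on septic TLR-deficient replicates 1 to 4. It read 6.94, 5.78, 6.26 and 6.61 on septic wildtype arrays and 6.79, 7.19, 6.93 and 4.99 on untreated arrays. Its 4 lowest values, 4.57 to 5.03, were on M5, M6, M7 and M16, and the other 8 arrays had 5.78 or more. The same 4 arrays were lowest in 1.85% of all genes. B cell markers were low there too, with a mean over 7 markers of 8.06 to 8.31 on M5 to M7 and M16, 9.55 to 9.90 on M12 to M15 and 8.23 to 10.28 on M8 to M11, where M10 had the 8.23. T cell markers averaged 6.73 to 6.84, 6.90 to 7.64 and 6.39 to 7.80 on the same runs in turn. Red pulp macrophage markers averaged 8.59 to 9.14, 9.25 to 9.48 and 8.18 to 9.90, and M10 was lowest for both lists. On M5 to M7 and M16, natural killer and cytotoxic T cell, neutrophil and erythroid markers overlapped their M12 to M15 ranges. Cx3cr1, a receptor of patrolling monocytes and natural killer cells, read 5.27 to 5.55 on M5 to M7 and 5.42 on M16, below its other 8 arrays, which began at 6.17. The mean of the 7 measured monocyte markers, which include Cx3cr1, did not separate these arrays. It was 8.20, 7.39, 7.51 and 7.58 on M5, M6, M7 and M16, against 7.90, 7.94, 6.45 and 8.12 on M8 to M11 and 8.20 to 8.73 on M12 to M15. The part of these cell types in the Ccr2 values was not tested.

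**Figure D2:**
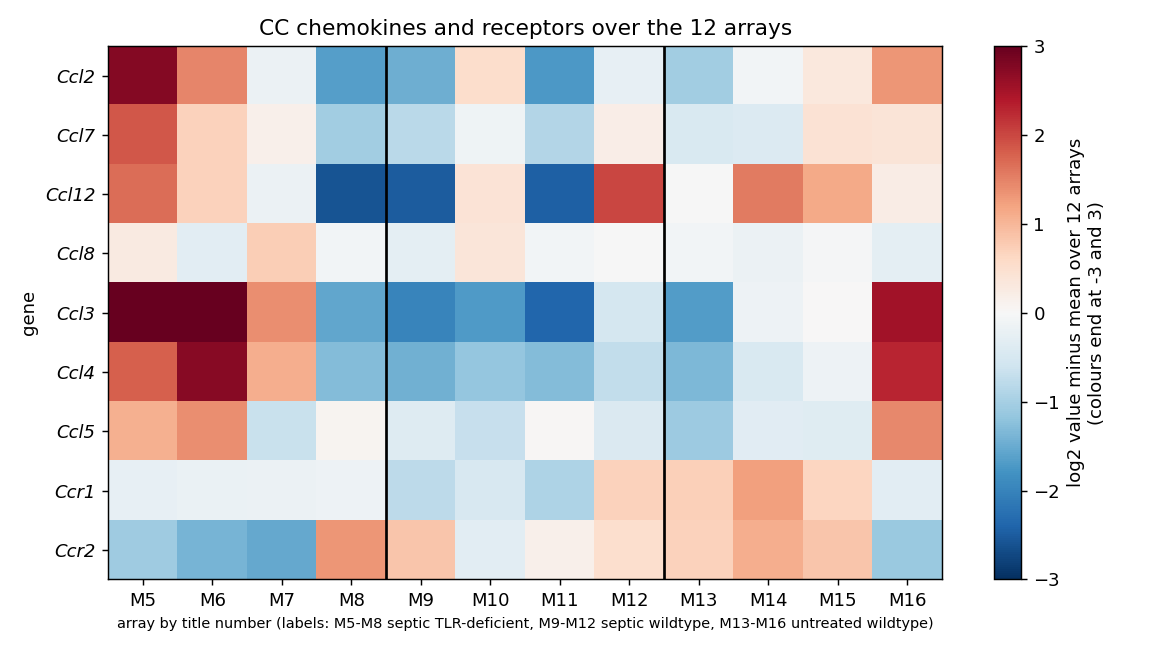
Each gene's log2 value minus its mean over the 12 arrays (colour), with arrays in title order from left to right and vertical lines between the labels. Ccl3 and Ccl4 are red on M5, M6, M7 and M16, Ccl12 is deep blue on M8, M9 and M11, Ccr1 is red on M12 to M15, and Ccr2 is blue where Ccl3 is red.

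The likeness of 2 patterns was measured as the root mean square difference of their log2 values, each centred on its own mean over the 12 arrays, where 0 is an identical pattern. Of the 36 pairs of members, Ccl3 with Ccl4 differed least at 0.56 and Ccl2 with Ccl7 next at 0.64, and both are pairs of neighbouring genes. The neighbours Ccl12 and Ccl8 differed by 1.57. The widest gap was between Ccl3 and Ccr2, at 2.75. Ccl2 and Ccl12, which share Ccr2, differed by 1.12.

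Among all other genes the 2 nearest to each member were named for the 8 members that spanned 2 or more log2 units. Nearest to Ccl3 were AA467197 at 0.45 and Tnip3, an inhibitor of NF-kappaB signalling, at 0.49. Nearest to Ccl4 were Il1rn, the interleukin-1 receptor antagonist, and Ptgs2, the inducible cyclooxygenase, both at 0.43. For Ccl2 they were Upp1 at 0.49 and Ptx3, a secreted pattern recognition molecule, at 0.59. For Ccl7 they were Gpr84 at 0.38 and Gpnmb at 0.41. Ccl12 had no gene as close, with Lipg at 0.81 and Oas2, an antiviral enzyme, at 0.84. For Ccl5 they were Tmtc2 at 0.40 and the transcription factor Stat4 at 0.42. Ccr1 lay nearest to Apod and Csf2rb2, both at 0.35, and Ccr2 to Rnase6 at 0.26 and Efhd1 at 0.31. Members with a small span have small differences by construction.

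The study compared septic TLR-deficient with septic wildtype mice to ask what the lack of TLR signalling changes during peritonitis. As labelled, 8 of the 9 members had a higher mean on septic TLR-deficient arrays, with only Ccr2 lower, against 43.9% of all genes with a higher mean. None of the members passed the test. In limma with Benjamini-Hochberg adjustment over all genes 0 of 9 members passed at an adjusted p under 0.05, as did 0% of the 19938 genes, and at an unadjusted p under 0.05 there were 2 members, Ccl3 and Ccl4, against 6.65% of genes. With 1 array left out, members ran from 1 (without M6, with 899 genes) to 5 (without M8, with 1654 genes). Gene counts ran from 606 (without M5) to 2201 (without M12), against 1325 with all arrays. No member had groups without overlap, against 3.8% of genes. The median difference over the 9 members was 0.82, and over all genes -0.06.

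Ccl3 averaged 9.92 ± 2.15 on septic TLR-deficient and 6.82 ± 0.79 on septic wildtype arrays (SD, n = 4 each), a log2 difference of 3.10 (SE 0.99, limma adjusted p = 0.590). Ccl4 averaged 7.89 ± 1.72 against 5.65 ± 0.30, a difference of 2.24 (SE 0.81, limma adjusted p = 0.590). M8, at 6.89 and 5.51, lay below the other 3 septic TLR-deficient arrays for both genes. Leaving out 1 array gave 2.58 (without M5) to 4.10 (without M8) for Ccl3 and 1.69 (without M6) to 3.04 (without M8) for Ccl4.

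The other ligands differed by less than 1.5 log2 units. Ccl2 had a difference of 1.32 (SE 0.83), between 0.60 without M5 and 2.07 without M8. Ccl5 had 0.84 (SE 0.52), between 0.53 without M6 and 1.22 without M7, and 0.48 with the mean of 3 Y-linked genes as a covariate. Ccl7 had 0.82 (SE 0.50), between 0.33 without M5 and 1.30 without M8. The direction of 3 members turned when a single array was left out. Ccl12, at 0.53 (SE 1.02), turned negative without M5, M9 or M11. Ccl8, at 0.17 (SE 0.23), did so without M7, and Ccr1, also at 0.17 (SE 0.36), without M11. With the Y-linked covariate Ccl12 had 1.24 and Ccr1 0.57, and with array weights Ccl12 had 1.78, Ccr1 0.36, Ccl8 0.33 and Ccl2 2.15.

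Ccr2 averaged 5.44 ± 1.34 on septic TLR-deficient and 6.40 ± 0.50 on septic wildtype arrays (SD, n = 4 each). The difference was -0.96 (SE 0.61, limma adjusted p = 0.590) between -1.63 without M8 and -0.67 without M7. M8 held the highest Ccr2 value of all 12 arrays.

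In the comparison of septic with untreated wildtype mice, which as labelled shows the response to peritonitis with TLRs intact, means were lower on septic wildtype arrays for 8 of the 9 members and higher for Ccl8, and none passed the test. Of all genes 55.1% had a higher mean on septic wildtype arrays. In limma 0 of 9 members and 0% of genes had an adjusted p under 0.05. At an unadjusted p under 0.05 there was 1 member, Ccr1, against 8.81% of genes. With 1 array left out, there were 0 members without M9, M11 or M14, where 2227, 3038 and 848 genes were counted. There were at most 2 members, without M8, M12 or M13, where 1512, 3193 and 1637 genes were counted. Gene counts ran from 793 (without M15) to 3193 (without M12), against 1756 with all arrays. No member had groups without overlap, against 6.42% of genes. The median difference was -0.86 over the members and 0.07 over all genes.

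Ccr1 averaged 4.95 ± 0.73 on septic wildtype and 5.89 ± 0.64 on untreated arrays (SD, n = 4 each), a difference of -0.94 (SE 0.36, limma adjusted p = 0.439). It was -0.37 with the Y-linked covariate. M12, labelled septic wildtype, read 6.01, and M16, labelled untreated, read 5.01, so each lay with the other label. Ccl3 averaged 6.82 ± 0.79 against 8.64 ± 1.74, a difference of -1.82 (SE 0.99), between -2.44 without M13 and -1.04 without M16. Ccl4 had -1.25 (SE 0.81), between -1.72 without M13 and -0.51 without M16.

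Ccl12 had a difference of -1.37 (SE 1.02), between -0.75 without M9 and -2.24 without M12, and had -0.37 with the Y-linked covariate and -2.71 with array weights. Ccl2 had -0.86 (SE 0.83), between -1.28 without M10 and -0.46 without M16. Ccl7 had -0.39 (SE 0.50), between -0.59 without M12 and -0.23 without M11, and -0.72 with array weights. Ccl5, at -0.28 (SE 0.52), lay between -0.61 without M13 and 0.23 without M16. Ccr2 lay at -0.08 (SE 0.61) and changed sign without M10, M13, M14 or M15. Ccl8 had 0.13 (SE 0.23), and 0.01 without M10.

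Setting septic TLR-deficient against untreated wildtype mice changes genotype and sepsis at once and shares its arrays with the other comparisons. Of the 9 members 6 had a higher mean on septic TLR-deficient arrays and Ccl12, Ccr1 and Ccr2 a lower one, against 51.9% of all genes with a higher mean. None passed in limma (0 of 9, against 0% of genes), 0 members had an unadjusted p under 0.05, against 1.88% of genes. Leaving out 1 array gave up to 5 members (without M16). Gene counts ran from 146 (without M7) to 1225 (without M10), against 375 with all arrays. The gene count without M16 lay within that range. No member had groups without overlap, against 3.4% of genes. The median difference was 0.42 over the members and 0.01 over all genes.

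Ccl3 had a log2 difference of 1.27 (SE 0.99), between 0.66 without M13 and 2.28 without M8, and 0.61 with the Y-linked covariate. Ccl4 had 0.996 (SE 0.81), between 0.44 without M6 and 1.79 without M8, and 0.08 with that covariate. Ccl5 differed by 0.56 (SE 0.52), Ccl2 by 0.46 (SE 0.83), Ccl7 by 0.42 (SE 0.50) and Ccl8 by 0.30 (SE 0.23). Ccl2 and Ccl7 turned negative without M5, Ccl5 lay between 0.22 without M13 and 1.07 without M16, and Ccl8 between 0.11 without M7 and 0.46 without M6. Ccr2 differed by -1.04 (SE 0.61), Ccr1 by -0.77 (SE 0.36) and Ccl12 by -0.83 (SE 1.02), and Ccl12 changed sign without M8. Ccr2 had -1.70 without M8 and -0.29 with the Y-linked covariate. Every member had a limma adjusted p of 1 here.

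**Figure D3:**
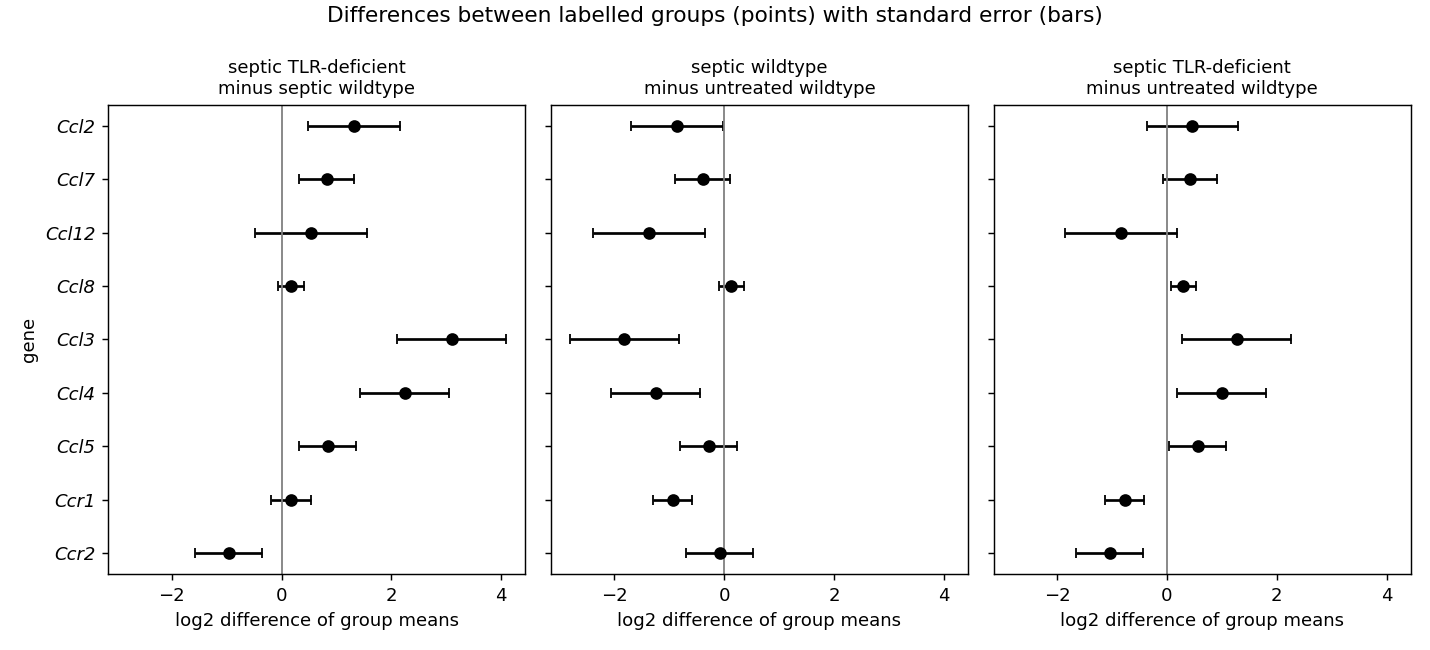
Difference of the mean log2 values of 4 arrays against 4 (points, first named group minus second) with its standard error from limma (bars), for 9 genes and 3 comparisons. Ccl3 and Ccl4 lie farthest right in the left panel, at 3.10 and 2.24, and no difference in any panel passed an adjusted p of 0.05.

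Within each run of title numbers 1 array carries a different label from the other 3, which sets the labels side by side there. The runs were drawn with these data in view, so likeness within a run is partly built in. The share of all genes within such ranges was not computed. M16, labelled untreated, lay above M5, M6 and M7, labelled septic TLR-deficient, by 0.04 for Ccl5 and below them by 0.05 for Ccr1. For the other members it lay within their range. Ccl3, for example, was 9.85 to 11.46 on M5 to M7 and 10.99 on M16. M12, labelled septic wildtype, was above the untreated arrays M13, M14 and M15 for Ccl12 by 0.43 and for Ccl8 by 0.01. It was below them for Ccr2, at 6.61 against 6.79 or more, and within their range for the other members.

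M8, labelled septic TLR-deficient, lay within the range of the septic wildtype arrays M9, M10 and M11 for Ccl2, Ccl4 and Ccl8. It was above them for Ccr2 by 0.49, for Ccr1 by 0.32, for Ccl3 by 0.13 and for Ccl5 by 0.03, and below them for Ccl7, at 5.22 against 5.38 or more, and for Ccl12, at 3.57 against 3.68 or more. With 1 array on one side these values have no test. The part of the runs of title numbers in the labelled comparisons was not tested.

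The rest of the CC system was set beside the 9 members through a list of 26 other CC chemokines and receptors, of which 23 were measured by a probe set with 1 symbol. In limma 0 of the 23 passed in any comparison. At an unadjusted p under 0.05 there were 5 between the septic TLR-deficient and the septic wildtype arrays (Ccl9, Ccl11, Ccr3, Ccr8 and Ccrl2), 2 between septic wildtype and untreated arrays (Ccl22 and Ccrl2) and 0 between septic TLR-deficient and untreated arrays. Of all genes 6.65%, 8.81% and 1.88% did so in the same comparisons. Between the septic TLR-deficient and the septic wildtype arrays 11 of the 23 had a higher mean and 12 a lower one, with a median difference of -0.04. Of all genes 43.9% had a higher mean there. The medians were 0.11 between septic wildtype and untreated arrays and -0.03 between septic TLR-deficient and untreated arrays.

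Ccr3, the eotaxin receptor of eosinophils, had the largest difference of the 23 between the septic TLR-deficient and the septic wildtype arrays, at -2.58 (SE 1.08, limma adjusted p = 0.590). It read 3.65, 4.22, 4.73 and 8.70 on septic TLR-deficient arrays, 8.19, 7.08, 8.52 and 7.81 on septic wildtype arrays and 7.73, 7.50, 7.30 and 3.33 on untreated arrays. Its 4 lowest arrays were those where Ccr2, its neighbour on chromosome 9, was lowest. Ccrl2, which binds chemerin and does not signal by itself, had 1.54 (SE 0.63), and Ccl11, an eotaxin, 1.33 (SE 0.54).

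Ccl11 read 7.21, 7.19, 7.26 and 5.15 on septic TLR-deficient arrays, 5.46, 5.36, 5.23 and 5.44 on septic wildtype arrays and 5.58, 5.45, 5.70 and 7.83 on untreated arrays. Its gene lies between Ccl7 and Ccl12, and it was high on M7 as well as on M5, M6 and M16. Between septic wildtype and untreated arrays the largest differences were -1.69 (SE 0.63) for Ccrl2, 1.43 (SE 1.08) for Ccr3 and -1.22 (SE 0.40) for Ccl22, a dendritic cell chemokine for T cells. Between septic TLR-deficient and untreated arrays they were -1.14 (SE 1.08) for Ccr3, 0.74 (SE 0.42) for Ccr6, a receptor of B cells and dendritic cells, and -0.59 (SE 0.40) for Ccl22.

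Of the 23, Ackr1, a scavenging receptor, was the single gene whose groups did not overlap, being higher on septic TLR-deficient than on untreated arrays, a comparison in which the groups of 3.4% of all genes did not overlap. Ccl11, Ccr7 and Ccr8 had their 4 highest values on M5, M6, M7 and M16, as Ccl3 and Ccl4 did, and Ccr3 and Ccr4 their 4 lowest, as Ccr2 did. Ccl9, Ccl22 and Ccrl2 had their 4 lowest on M8 to M11, which 2.12% of all genes did. Ccl24 shared with Ccr1 the 4 highest on M12 to M15. Some of these orders rest on thin margins. Ccl24 read 6.50 on M13 and 6.49 on M8, Ccr8 4.80 on M7 and 4.78 on M10, and Ccr4 4.81 on M5 and 4.85 on M13.

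**Figure D4:**
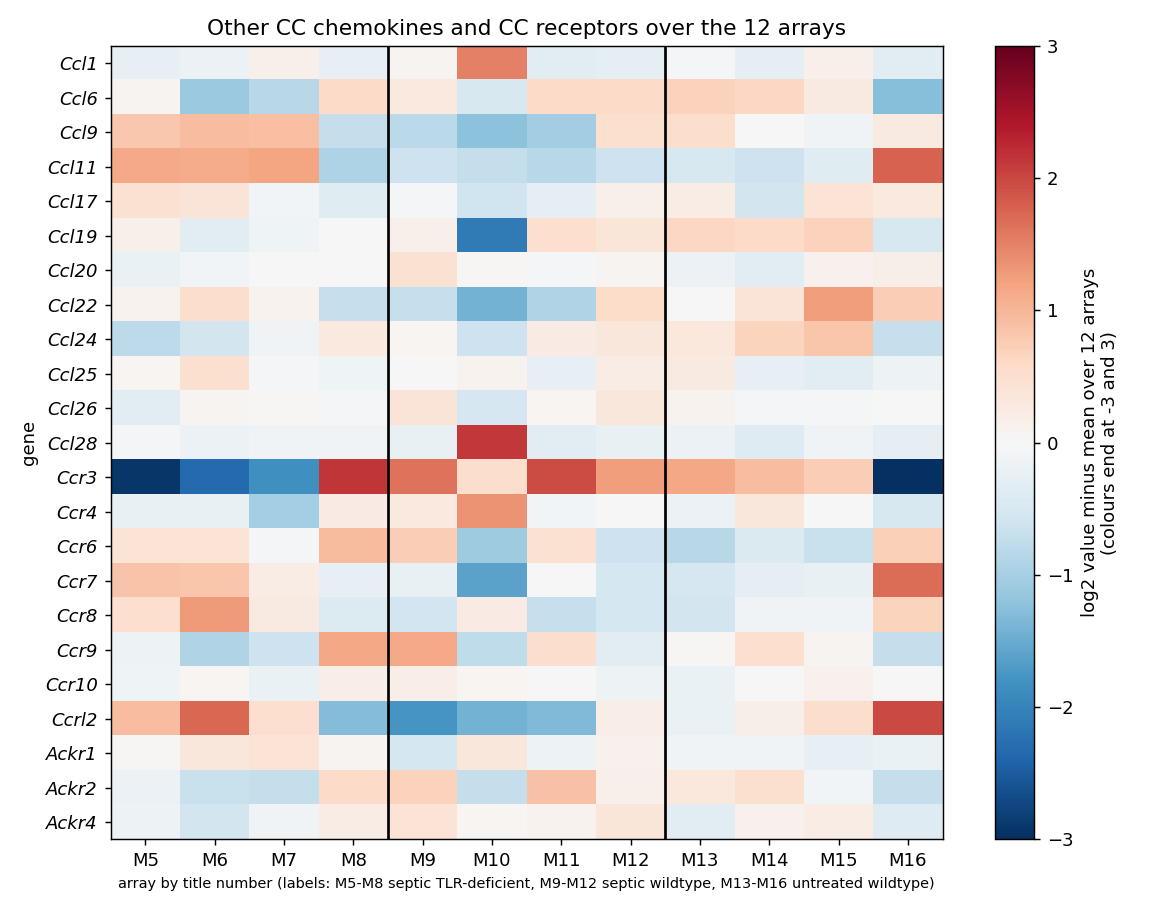
Log2 value minus the mean over 12 arrays (colour) for 23 other CC chemokines and receptors, with arrays in title order and vertical lines between the labels. Ccr3 is blue and Ccl11, Ccr7 and Ccrl2 are red on M5, M6, M7 and M16, and Ccl1, Ccl28 and Ccr4 are highest on M10.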

How the data were processed

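Biotin-labelled cDNA made from spleen total RNA with Affymetrix whole-transcript kits was read on 12 arrays, per the labels' protocols. The deposited values are log2 expression per probe set, made with RMA in Affymetrix Expression Console per the submitters' processing notes, which give no versions. RMA corrects background, is meant to equalise the arrays' distributions and summarises probes. The deposited distributions were not equal. The SD over probe sets was 1.524 on M10 and 2.111 to 2.244 on the other arrays, and the medians ran from 5.218 to 5.535. Of 35557 probe sets 21789 carry 1 symbol, 1621 several and 12147 none, and the brightest probe set per gene gave 19938 genes, with no filter on dim genes.

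Groups followed the labels. A mean per group was fitted over all 12 arrays with limma 3.58.1 in R 4.3.3, two-sided, with Benjamini-Hochberg adjustment over all genes and a threshold of 0.05, and the fit was tested on simulated data. The labels call the replicates biological. Whether equal replicate numbers pair arrays was checked by correlating deviations from group means, which ran from -0.535 to 0.144, so they were not treated as pairs. Members and lists were chosen with earlier results of these data known, and the TATAA search after the sequences were read. The rule named all members, the adaptors, sex-linked genes, the 3 largest differences of the other CC list and the 2 nearest genes per member. Other genes named were chosen after their values were seen. Alternatives were a further quantile normalization, median centring, a filter at percentile 25, the mean of probe sets, only the groups compared, trended robust variances, array weights, the replicate block, a Y-linked covariate (3 of 4 planned genes were measured) and leaving out each array.
Figures used matplotlib 3.10.9. The number of arrays limits precision.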

Additional observations from a re-analysis of the deposited data

Results flagged for a closer look

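Of 27 sets of 4 arrays (9 genes in 3 labelled groups), 1 held an array far from the others. Ccr2 on M8, septic TLR-deficient replicate 4, read 7.43, while the other 3 arrays of its label read 4.57 to 5.03, a gap of 0.837 of the group's range. Chance flags about 1 in 20 such sets. The cause was not tested.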

How the results depend on the processing

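No member passed the threshold under any of 21 alternatives in any comparison. The lowest adjusted p of a member was 0.291 between septic TLR-deficient and septic wildtype, 0.101 between septic wildtype and untreated and 0.204 between septic TLR-deficient and untreated arrays. Over all genes the count stayed at 0 in every setting but one. Array weights, which gave M10 a weight of 0.04, called 1 gene lower on septic wildtype than untreated arrays, Smoc2. The replicate block called 0 genes in each comparison (1006, 1338 and 308 at an unadjusted p under 0.05, against 1325, 1756 and 375 without it), and for 2 of 24 pairings of an array with another group the best match had its own number. Of 188 member values per comparison, 183, 179 and 182 kept their direction. Between septic wildtype and untreated arrays the quantile normalization turned Ccl8 to -0.19, array weights turned Ccl5 to 0.04 (0.0364 before rounding) and Ccl8 to -0.09 (-0.0889), and the Y-linked covariate turned Ccr2 to 0.36. Between septic TLR-deficient and untreated arrays that covariate gave -0.31 for Ccl5, 0.87 for Ccl12 and 0.20 for Ccr1. Leaving out 1 array turned some differences. Between the septic TLR-deficient and the septic wildtype arrays Ccl12 ran from -0.09 (-0.0870) to 1.41, Ccl8 from -0.03 (-0.0253) to 0.32 and Ccr1 from -0.01 (-0.0128) to 0.53. Between septic wildtype and untreated arrays Ccl5 ran from -0.61 to 0.23 and Ccr2 from -0.57 to 0.16. Between septic TLR-deficient and untreated arrays Ccl2 ran from -0.26 to 1.21, Ccl7 from -0.06 (-0.0619) to 0.91 and Ccl12 from -1.43 to 0.0020. The causes were not tested. Ccl8 was removed by the filter on dim genes and has no value there.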
